A study of Bos taurus and Felis catus with 14 samples.

Results

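The microRNAs examined here belong to the imprinted DLK1-DIO3 region, where predicted precursor loci were compared between cow and cat by order, spacing, arm usage and missing members. Members are the precursors that start within an interval of 220 kb on bovine chromosome 21, and within an interval of 300 kb on the feline sequence NC_018728.2, around the microRNAs from mir-493 to the last locus after mir-379. Names that mark a locus as antisense were left out, and mature products were joined to the precursor they derive from. The rule gave 46 of the 810 bovine precursors and 28 of the 495 feline precursors, 74 of 1305 over both species. The nearest other loci without an antisense name lay 327249 nt before the first and 544689 nt after the last bovine member, and 502602 and 1371221 nt away in the cat. Small RNA had been sequenced from 10 bovine tissues (brain stem, retina, optic nerve, iris, corium, oral papillae, dental pulp, submandibular lymph node, bone marrow and penis), 1 library each, and from feline skin and muscle, 2 libraries each. The bovine libraries came from 3 steers, 8 of them from the same animal, and the feline libraries came from 3 cats, with no treatment in either species. All libraries of a species were combined into 1 set of predictions, so the files analysed here hold no replicate, no value per tissue and no read number. The read numbers per sample in the study's supplement were not used here. Species, tissues sampled and sequencing depth therefore cannot be told apart in any comparison of cow with cat, and the depth behind a locus is unknown from these files.

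In mammals the DLK1-DIO3 region is imprinted. The protein-coding genes DLK1, RTL1 and DIO3 are expressed from the paternal chromosome, and the long noncoding RNAs MEG3 (also called GTL2), MEG8 and MEG9, a snoRNA array and the microRNAs are expressed from the maternal chromosome. The microRNAs that lie antisense to RTL1 are complementary to its transcript and can direct its cleavage, and the group from mir-379 to mir-410 is known for its expression in brain, where it includes mir-134, a regulator of dendritic spine size. In sheep the callipyge mutation, which enlarges the muscles of the hindquarters, lies in this region. A microRNA precursor is a hairpin, and Dicer releases from it a duplex whose strands are named 5p and 3p after the arm of origin. The seed, bases 2 to 8 of the mature strand, directs target recognition.

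Sequences of the bovine and feline products were not analysed here. To show what these families encode, sequences of their human counterparts on human chromosome 14 are printed, matched by family number and taken from the study's own table of human products. They are written as DNA from 5′ to 3′ with the seed in capitals, and they are not the bovine or feline sequences. Their lengths are those of the study's listed products, among them 17 nt for hsa-mir-431-5p and 18 nt for hsa-mir-127-5p. Whether each is the full mature microRNA was not checked here. The counterparts of the RTL1-antisense list are shown because these microRNAs act on the transcript they lie opposite.
hsa-mir-431-5p: tGTCTTGCaggccgtca
hsa-mir-431-3p: tGCAGGTCgtcttgcagggcttc
hsa-mir-433-5p: tACGGTGAgcctgtcattatt
hsa-mir-433-3p: aTCATGATgggctcctcggtgt
hsa-mir-127-5p: cTGAAGCTcagagggctc
hsa-mir-127-3p: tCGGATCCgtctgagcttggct
hsa-mir-432-5p: tCTTGGAGtaggtcattgggt
hsa-mir-136-5p: aCTCCATTtgttttgatgatgga
hsa-mir-136-3p: cATCATCGtctcaaatgagtct

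From the group that starts at mir-379, the first microRNA, the neuronal mir-134 and mir-410 at the far end are shown next, followed by products that share a seed with a product of another locus. The 3p product of mir-376c, whose seed no other listed product has, closes the list for comparison with its relatives. Copies of mir-329 and of mir-1185 that share seeds are counted but not printed.
hsa-mir-379-5p: tGGTAGACtatggaacgtagg
hsa-mir-134-5p: tGTGACTGgttgaccagagggg
hsa-mir-410-3p: aATATAACacagatggcctgt
hsa-mir-410-5p: aGGTTGTCtgtgatgagttcg
hsa-mir-494-5p: aGGTTGTCcgtgttgtcttctc
hsa-mir-485-3p: gTCATACAcggctctcctctct
hsa-mir-539-3p: aTCATACAaggacaatttcttt
hsa-mir-376c-5p: gTGGATATtccttctatgttta
hsa-mir-376b-5p: gTGGATATtccttctatgttta
hsa-mir-376a-2-3p: aTCATAGAggaaaatccacgt
hsa-mir-376b-3p: aTCATAGAggaaaatccatgt
hsa-mir-376c-3p: aACATAGAggaaattccacgt

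The human table held 64 products for 30 of the 41 families that have a member in either species, with 56 different seeds. A seed was shared by 16 of these products, in 8 pairs. In 6 of the pairs both products were of the same family (mir-329, mir-1185 and mir-376). In the other 2 pairs the families differed, mir-494 with mir-410 on the 5p arm and mir-539 with mir-485 on the 3p arm. Of these last 4 families, mir-410 and mir-485 had a member in both species, while mir-494 and mir-539 had one in the cow alone. The feline mir-410 locus listed a 3p product alone, so no feline product of the 5p arm that shares this seed in human was listed. Within mir-376 the human 3p products fell into 2 seed groups. The cow had 5 members of that family, named a to e, and the cat had 1, named mir-376c, whose human namesake carries the seed ACATAGA.

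Both species had the same 3-part layout. The upstream group ran from mir-493 to mir-136, mir-370 lay alone or with 1 further locus in the middle, and the downstream group began at mir-379. In the cow, the upstream group held 7 loci over 14.9 kb, from bta-mir-493 (chromosome 21, 67416617 to 67416685) to bta-mir-136 (67431416 to 67431509). The feline upstream group held 5 loci over 12.1 kb, from fca-mir-493 (NC_018728.2, 143302897 to 143302965) to the feline mir-136 locus (143314950 to 143315043). Downstream, the cow had 37 loci over 42.9 kb, from bta-mir-379 (67561883 to 67561945) to bta-mir-656 (67604692 to 67604754). The cat had 22 loci over 41.5 kb, from fca-mir-379 (143465535 to 143465597) to fca-mir-410 (143506925 to 143507024). Thus the downstream group took up nearly the same length in both species with 15 more loci called in the cow. The middle held bta-mir-370 (67457227 to 67457323) and the bovine mir-3955 locus (67542559 to 67542622) in the cow, and fca-mir-370 (143341865 to 143341927) in the cat. The names of 2 bovine members (mir-3955 and mir-668) and 4 feline members (mir-136, mir-668, mir-412 and mir-369) carry, after the family name, the submitters' mark for a family member without earlier annotation, and these loci are called by species and family here. Every bovine member and 27 of the 28 feline members were on the plus strand. A bovine minus-strand locus opposite mir-299 had been left out because its name marks it as antisense.

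**Figure D1:**
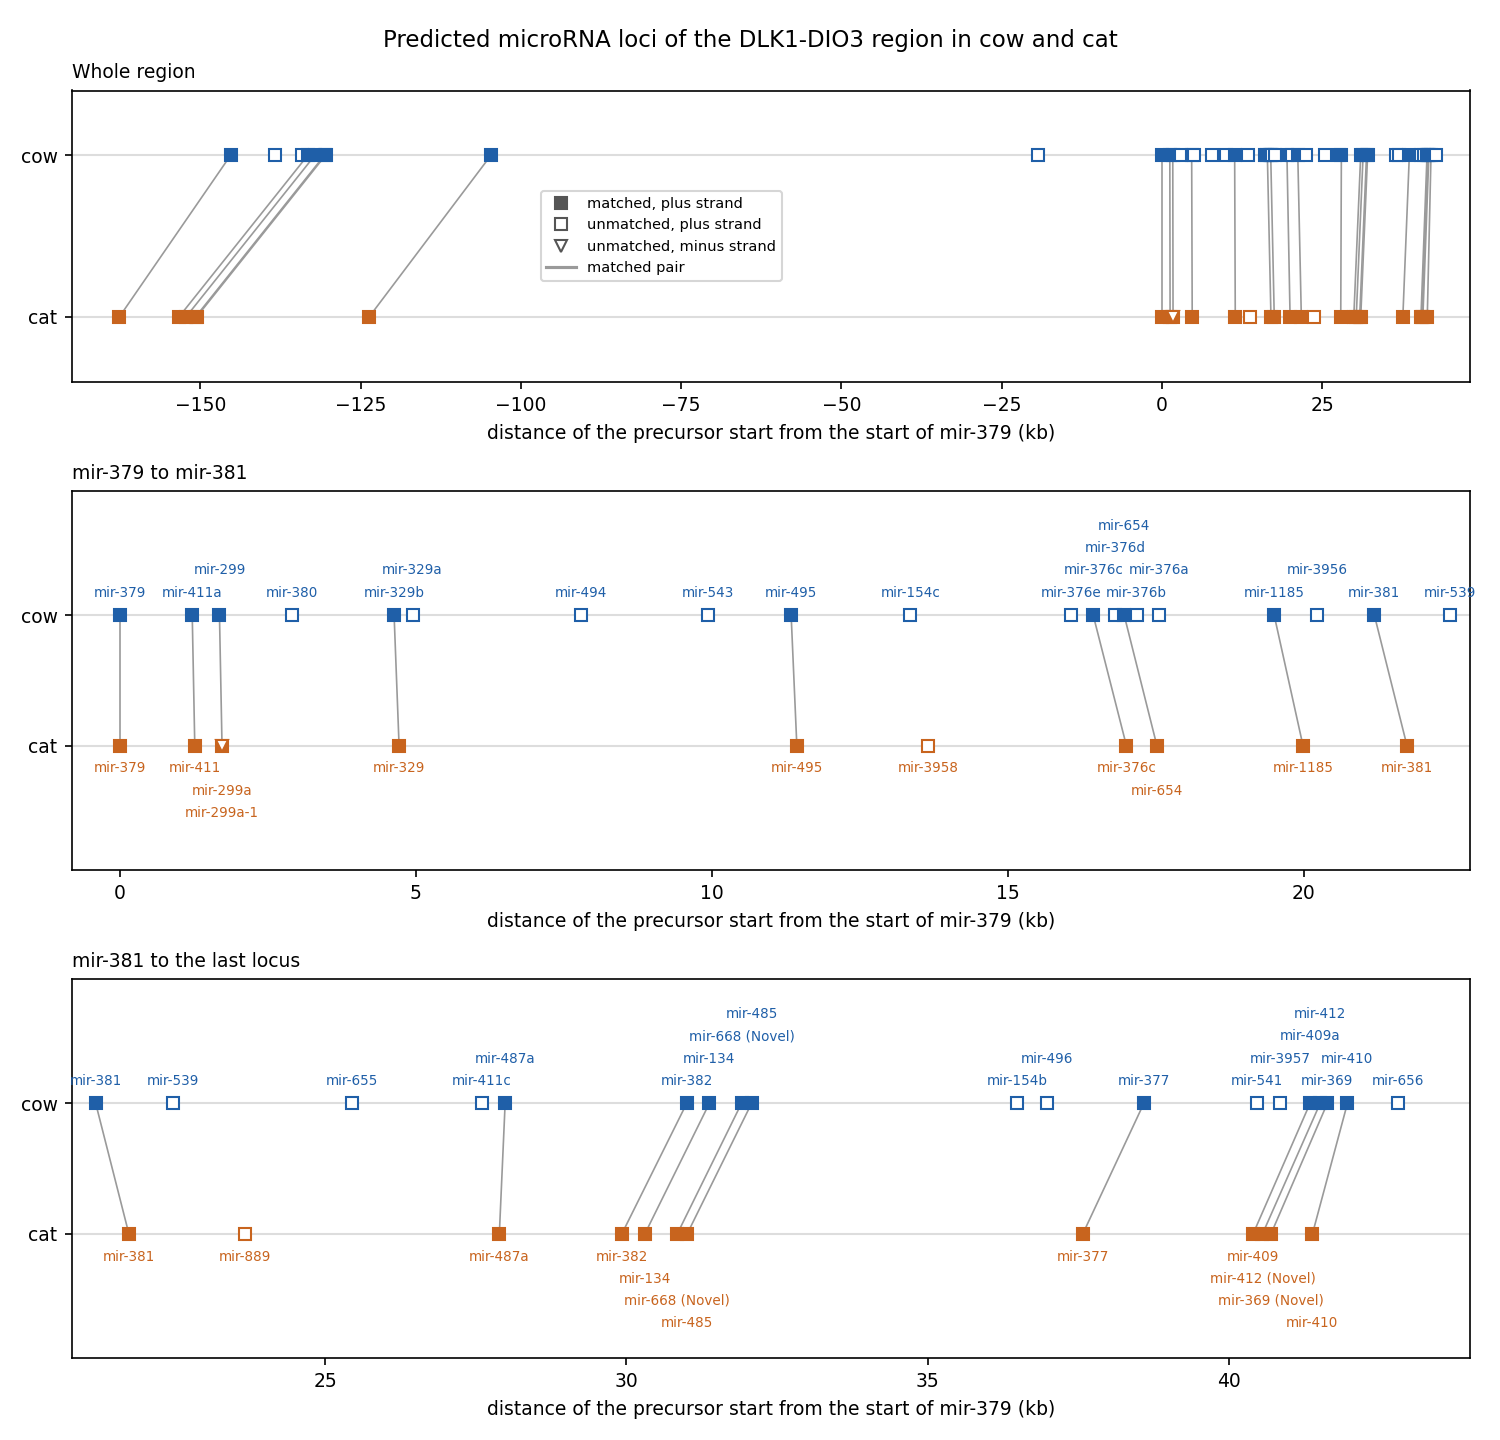
Distance of each precursor start from the start of mir-379 (horizontal axis, kb) in cow (upper line of each panel) and cat (lower line), for the whole region and for the downstream group in 2 enlarged panels. Filled squares are loci matched between the species and joined by grey lines, open symbols are unmatched, and the triangle is on the minus strand. The 25 joining lines do not cross, and the upstream lines lean because the stretch before mir-379 is longer in the cat.

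Gene annotation places the bovine loci among the imprinted genes. In the RefSeq bovine gene table (assembly ARS-UCD2.0, not the assembly of the deposited positions, so used for names and neighbours only), 45 of the 46 members matched a microRNA gene by name, and all 45 followed each other in the same order there. Most of these names come from earlier bovine annotation, so the match and the order are no independent check of the calls. MIR493 came directly after MEG3 in the RefSeq order, and MIR656 directly before MEG9. MIR431, MIR433, MIR127, MIR432 and MIR136 lay within the span of RTL1. MIR432, MIR136 and MIR370 lay within the span of MEG8. Between MIR370 and MIR379 the table lists 32 snoRNA genes. The locus that matched no RefSeq microRNA gene was the bovine mir-3955 locus, which lay in the stretch between bta-mir-370 and bta-mir-379, 85235 nt after the first and 19260 nt before the second. From MIR493 to MIR656 RefSeq lists 58 microRNA genes, of which 45 (77.6%, 95% exact interval 64.7 to 87.5%) were called as members. The share called among all bovine microRNA genes was not worked out here, so whether 77.6% is usual for this list is unknown. Not called were MIR411B, MIR1197, MIR323, MIR758, MIR1193, MIR487B, MIR544A, MIR3578, MIR453, MIR154A, MIR409B, MIR323B and MIR299-2. The last of these overlaps MIR299 in that table, where a bovine locus named as antisense, and so left out of the members, was called.

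The feline members followed the bovine order. Loci were matched by family number, in order along the region and on the same strand, which paired 25 loci, 54.3% of the bovine and 89.3% of the feline members. The matched loci were 5 upstream (mir-493, mir-433, mir-127, mir-432 and mir-136), mir-370, and 19 downstream. Downstream they were mir-379, mir-411, mir-299, mir-329, mir-495, mir-376, mir-654, mir-1185, mir-381, mir-487, mir-382, mir-134, mir-668, mir-485, mir-377, mir-409, mir-412, mir-369 and mir-410. Since the method of matching keeps order, the informative count is that 25 of the 28 feline members found a partner in that order and on that strand. The other 3 were a minus-strand locus and 2 families with no bovine locus. The minus-strand locus lies opposite mir-299, where the bovine locus named as antisense was left out before matching. For the feline mir-329, either of 2 bovine copies would keep the order, and the first was taken.

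Spacing was close to identical within the upstream group after mir-433. From mir-433 to mir-127 the gap between precursors was 1029 nt in the cow and 1028 nt in the cat. From mir-127 to mir-432 it was 1429 and 1425 nt, and from mir-432 to mir-136 it was 96 nt in both. These are the loci that lie opposite RTL1. The gap from mir-493 to mir-433 was 11974 nt in the cow, with mir-665 and mir-431 called within it, and 9231 nt in the cat, with no locus called within it.

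Between the groups the distances were longer in the cat. From mir-136 to mir-370 the gap was 25717 nt in the cow and 26821 nt in the cat. The gap from mir-370 to mir-379, which holds the snoRNA genes in the bovine annotation, was 104559 nt and 123607 nt, 1.18 times as long in the cat. From mir-493 to mir-410 the whole stretch measured 187 kb in the cow and 204 kb in the cat, a difference of 16791 nt, so the excess in the mir-370 to mir-379 gap (19048 nt) was larger than that of the whole region.

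Downstream of mir-379 the positions of the 2 species ran in parallel. The gap from mir-379 to mir-410 was 41908 nt in the cow and 41327 nt in the cat. No matched locus was further than 1076 nt from the place, relative to mir-379, that it had in the other species. Over the 18 gaps between neighbouring matched loci of this group, the median absolute difference was 44.5 nt (range 0 to 980 nt). The cat had the longer gap in 13, the shorter in 4 and the same gap in 1, from mir-411 to mir-299 (399 nt). The largest difference was from mir-487a to mir-382, with 2950 nt in the cow and 1970 nt in the cat. The next were from mir-381 to mir-487a (6727 and 6081 nt), from mir-495 to mir-376c (5002 and 5502 nt) and from mir-369 to mir-410. The last gap was 226 nt in the cow and 628 nt in the cat, and between precursor starts it was 334 and 688 nt. Between mir-409, mir-412 and mir-369 the gaps of 67 and 54 nt in the cow and 93 and 80 nt in the cat lay beside bovine precursors of mir-409 and mir-369 that were longer than the feline ones, and the distances between starts were 168 and 119 nt against 156 and 141 nt. From mir-668 to mir-485 the gap was 71 nt in the cow and 96 nt in the cat, and the distance between starts was 167 and 164 nt.

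Downstream of mir-379, stretches where the cat lacked loci were within about 10% of the bovine length. In 9 of the 18 downstream gaps the cow had members that the cat did not match, 17 loci in all, and in each of the 9 the feline gap was 0.904 to 1.10 times the bovine gap. The largest departures were mir-381 to mir-487a and mir-495 to mir-376c. Between mir-329 and mir-495 the cow had mir-329a, mir-494 and mir-543, and the gap was 6647 nt in the cow and 6655 nt in the cat. Between mir-654 and mir-1185, which held mir-376b and mir-376a in the cow, it was 2472 and 2406 nt. The stretch from mir-485 to mir-377, with mir-154b and mir-496 in the cow, measured 6449 and 6508 nt, and that from mir-377 to mir-409, with mir-541 and mir-3957, measured 2659 and 2765 nt. Of the 9 downstream gaps with no bovine member between, 4 were within 10% of the bovine length, and the ratios ran from 0.668 to 2.78. Ratios of 1.35, 1.39 and 1.48 came from bovine gaps of 71, 67 and 54 nt beside bovine precursors longer than the feline ones. Between starts, mir-668 to mir-485 (167 and 164 nt) and mir-409 to mir-412 (168 and 156 nt) were within 10%. From mir-412 to mir-369 (119 and 141 nt) they were not. Stretches with unmatched bovine members were less alike outside the downstream group. There the stretch with mir-665 and mir-431 in the cow (mir-493 to mir-433) was 0.771 times as long in the cat. That with mir-3955 (mir-370 to mir-379) was 1.18 times as long. Whether the feline genome holds the hairpins in these stretches was not analysed here.

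**Figure D2:**
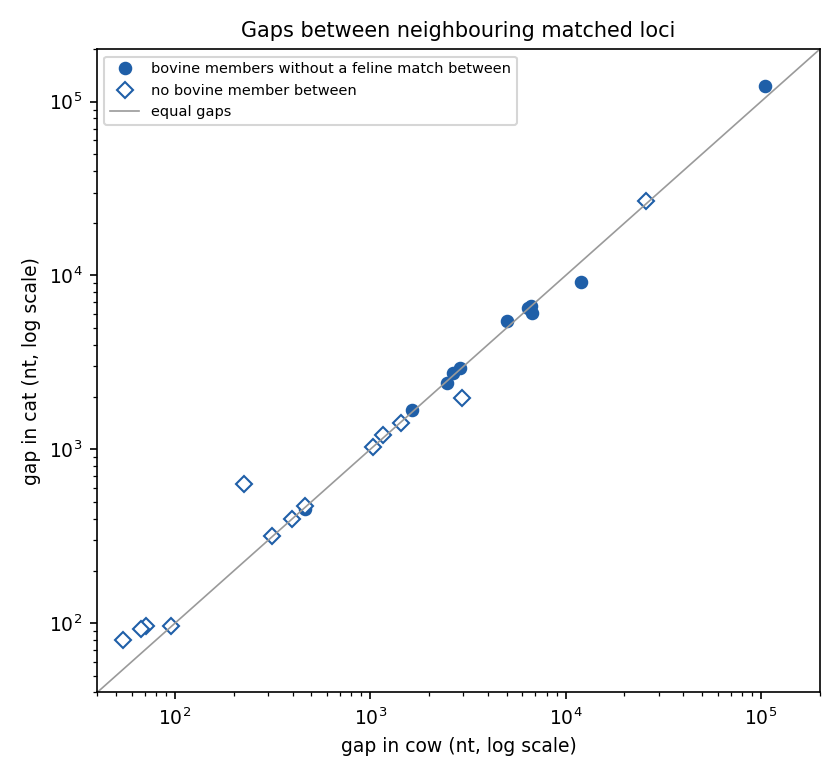
Gap between neighbouring matched precursors in cow (horizontal axis, nt, log scale) and cat (vertical axis, nt, log scale), 1 point for each of the 24 gaps, with the line of equal gaps. Filled points, gaps that hold bovine members without a feline match, lie near the line, and among the open points mir-369 to mir-410 (226 and 628 nt) lies farthest from it.

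More families of the region were called in the cow alone than in the cat alone, as in the rest of the lists, which are of unequal size. The bovine members fell into 39 families by number and the feline members into 27, of which 25 were common to both. The 14 families called in the region in the cow alone were mir-665, mir-431, mir-3955, mir-380, mir-494, mir-543, mir-154, mir-3956, mir-539, mir-655, mir-496, mir-541, mir-3957 and mir-656. The families of the cat alone were mir-3958 and mir-889. The 14 were 35.9% of the bovine families of the region, and 103 of 264 other bovine families (39%) likewise had no feline locus. This likeness did not hold among families numbered below 1000. There, 24 of 35 bovine families of the region had a feline locus, against 147 of 170 others (adjusted p = 0.0434, Fisher's exact test). The 2 were 7.41% of the feline families of the region, and 20 of 181 other feline families (11%) had no bovine locus. None of these 16 families had a locus elsewhere in the list of the other species. When names had to match with their letter, 25 names stood in the cow alone and 7 in the cat alone.

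Within the region, families with several bovine copies had at most 1 feline member. How often this holds for such families elsewhere in the lists was not worked out here. In the cow, 11 members belonged to 4 families with more than 1 member, mir-376 (5), mir-154 (2), mir-329 (2) and mir-411 (2). In the cat the same families had 1, 0, 1 and 1. The only feline family with more than 1 member was mir-299, whose 2 loci overlap on opposite strands. A locus opposite bta-mir-299 was called in the cow too, but was left out of the members because of its name. A read that fits several copies equally well was shared among them as fractions in the study's processing, so copies of a family whose sequences are near-identical would be uncertain as separate calls. How alike the bovine copies are was not analysed here.

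Positions of the unmatched bovine loci on chromosome 21, all on the plus strand, were as follows. Upstream, mir-665 lay at 67423452 to 67423513 and mir-431, the first of the RTL1-antisense list, at 67427769 to 67427860. In the first stretch after mir-379, mir-380 lay at 67564801 to 67564863, mir-329a at 67566831 to 67566890, mir-494 at 67569673 to 67569762 and mir-543 at 67571814 to 67571913. Around the mir-376 copies, mir-154c lay at 67575240 to 67575333, mir-376e at 67577949 to 67578015, mir-376d at 67578693 to 67578759, mir-376b at 67579059 to 67579154 and mir-376a at 67579442 to 67579505. The 5 bovine mir-376 copies and mir-654 thus stood in a row, interleaved in the order e, c, d, mir-654, b, a. Further on, mir-3956 lay at 67582112 to 67582197, mir-539 at 67584355 to 67584467, mir-655 at 67587332 to 67587397 and mir-411c at 67589486 to 67589544. Towards the end, mir-154b lay at 67598366 to 67598430, mir-496 at 67598867 to 67598964, mir-541 at 67602353 to 67602419 and mir-3957 at 67602740 to 67602800. The last locus, mir-656, had no feline counterpart beyond mir-410.

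Of the 3 feline loci without a bovine match, the 2 whose families had no bovine locus each shared a stretch with bovine loci of another name. The minus-strand locus opposite mir-299 is described separately. On NC_018728.2, fca-mir-3958 lay at 143479196 to 143479257 on the plus strand, 2223 nt after the start of fca-mir-495. At a similar distance, 2015 nt after the start of bta-mir-495, the cow had bta-mir-154c. Both gave products of 22 nt from each arm, whose 5′ ends lay 34 nt apart in either species. This pair was picked after its positions were seen, and, without sequences, whether they are the same hairpin was not tested. The other, fca-mir-889, lay at 143489202 to 143489266 on the plus strand, 1925 nt after the start of fca-mir-381. In that stretch the cow had mir-539 (1281 nt after the start of bta-mir-381), mir-655 and mir-411c. The RefSeq bovine table lists no MIR889 or MIR3958 gene between DLK1 and DIO3.

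A locus on the strand opposite mir-299 was called in both species. In the cat, fca-mir-299a (143467266 to 143467323, plus strand) overlapped fca-mir-299a-1 (143467269 to 143467318, minus strand), and both gave products from both arms. In the cow, bta-mir-299 (67563571 to 67563633, plus strand) overlapped a locus named as antisense to it (67563573 to 67563626, minus strand), again with both arms. The bovine antisense locus was left out of the members because of its name, and the feline one was kept because its name carries no such mark. Counting it would give 47 bovine members. The 5′ ends of the minus-strand products lay 31 nt apart in each species, and their 3p products were 19 nt in the cow and 18 nt in the cat.

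From a list of 50 microRNA families known from the region in mammals, chosen with earlier results of these data known, the cow had a member of 38 and the cat of 27. By group, the 9 upstream families had 7 and 5, mir-370 had a member in both species, and the 39 downstream families had 30 and 21. No member was called in either species for mir-770, mir-337, mir-1197, mir-323, mir-758, mir-1193, mir-300, mir-544, mir-453 and mir-1247. For mir-1247, which lies near DIO3, a bovine locus was called 544689 nt after bta-mir-656 and on the minus strand (68149444 to 68149502), outside the interval examined. For mir-300 a feline locus with a 3p product alone, named in the same way, was called on another sequence, NT_263968.1 (438 to 501, minus strand), so its place relative to the region is unknown from these files. A family without a call has no listed prediction, which does not show that it is absent or silent. Whether reads of it were present is unknown from these files.

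Against the rest of each list, the families of the region were shared with the other species about as often as other families. Of the 39 bovine families of the region, 25 (64.1%, 95% exact interval 47.2 to 78.8%) had a feline locus, against 161 of 264 other bovine families with a number (61%, interval 54.8 to 66.9%). Of the 27 feline families, 25 (92.6%, interval 75.7 to 99.1%) had a bovine locus, against 161 of 181 other feline families (89%, interval 83.5 to 93.1%). Neither difference passed Fisher's exact test, two-sided (p = 0.86 and p = 0.746, both 1 after Benjamini-Hochberg adjustment over 4 tests). The bovine result turned when families numbered 1000 or above were set aside on both sides. Then 24 of 35 bovine families of the region had a feline locus against 147 of 170 others, a difference of -17.9 percentage points, with an adjusted p = 0.0434 by the same exact test. Neighbouring loci can come from 1 transcript and are not independent, so these p-values describe the lists.

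**Figure D3:**
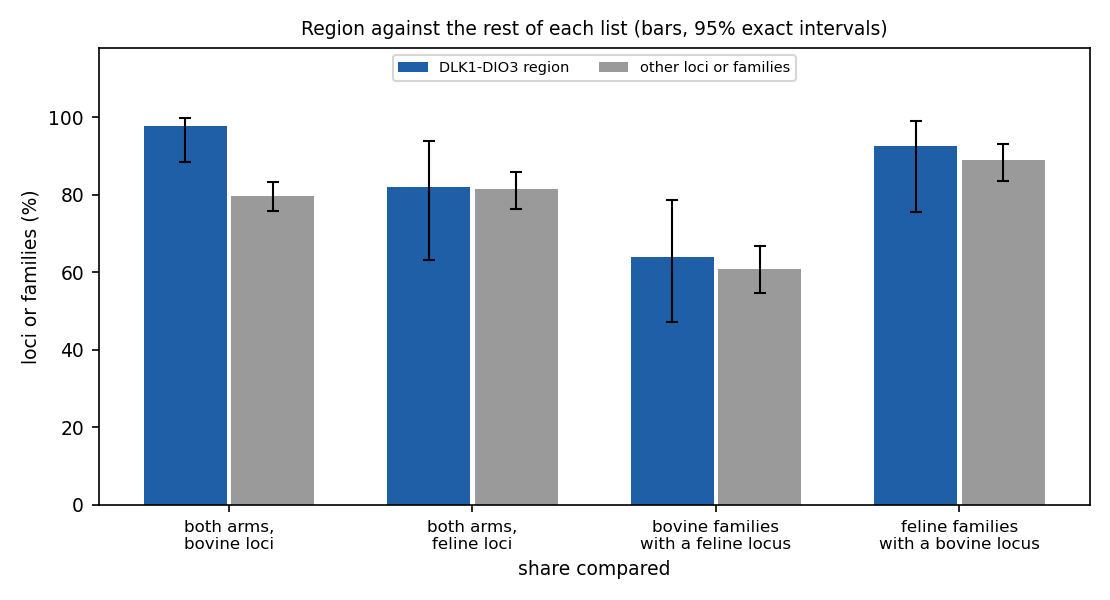
Share of loci or families (vertical axis, %) for the DLK1-DIO3 region (blue) and the rest of the same list (grey), with 95% exact intervals as error bars. In the first pair of bars, both arms among bovine loci, the region stood at 97.8% and the rest at 79.8%, and in the other 3 pairs the intervals overlap widely.

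Products from both arms were listed at nearly all bovine members. A 5p and a 3p product were present at 45 of 46 members (97.8%, 95% exact interval 88.5 to 99.9%), against 364 of 456 other bovine loci with a family number (79.8%, interval 75.8 to 83.4%). The difference of 18 percentage points passed Fisher's exact test, two-sided (p = 0.00109, adjusted p = 0.00436). The test counts each locus as independent, which neighbouring loci of the same region are not. The p-values for both arms, in cow and in cat, therefore describe the lists. With products of 20 to 24 nt alone the bovine difference was 12.4 points and no longer passed the exact test (adjusted p = 0.247). In this setting 4 bovine members had a product outside those lengths. These were mir-431 (18 nt, 5p), mir-329a (18 nt, 3p), mir-376d (18 nt, 5p) and mir-541 (25 nt, 5p). In the study's processing the number of neighbouring loci enters the score of a hairpin, and its part in this difference was not tested. Only 2 of the 46 members carry the submitters' mark for a family member without earlier annotation. How many of the 456 other loci carry it was not worked out here. Members and other loci were not matched for earlier annotation, and its part in the difference was not tested either. The exception among bovine members was the bovine mir-3955 locus, with a single 5p product of 22 nt.

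In the cat, both arms gave a product at 23 of 28 members (82.1%, interval 63.1 to 93.9%), against 216 of 265 other feline loci with a family number (81.5%, interval 76.3 to 86%). This difference of 0.633 percentage points did not pass the exact test (p = 1). Against all other feline loci, those without a family number included, it was 17.2 points (23 of 28 against 300 of 462) and did not pass the exact test either (adjusted p = 0.134). The 5 feline members with a single arm were all matched, and each bovine partner had both arms. A 5p product alone was listed for fca-mir-432 (143314782 to 143314853) and fca-mir-377 (143503113 to 143503174), each of 22 nt. A 3p product alone was listed for fca-mir-495 (143476973 to 143477036, 22 nt), fca-mir-376c (143482539 to 143482602, 21 nt) and fca-mir-410 (21 nt). At all 5 loci the bovine product of the same arm had the same length. Of the 25 matched pairs, 20 had both arms in both species, 5 had both in the cow and 1 in the cat, and 0 the reverse. Among 171 pairs elsewhere with an identical name used once in each list, these counts were 146, 18 and 3. No test of this difference between the species was made.

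**Figure D4:**
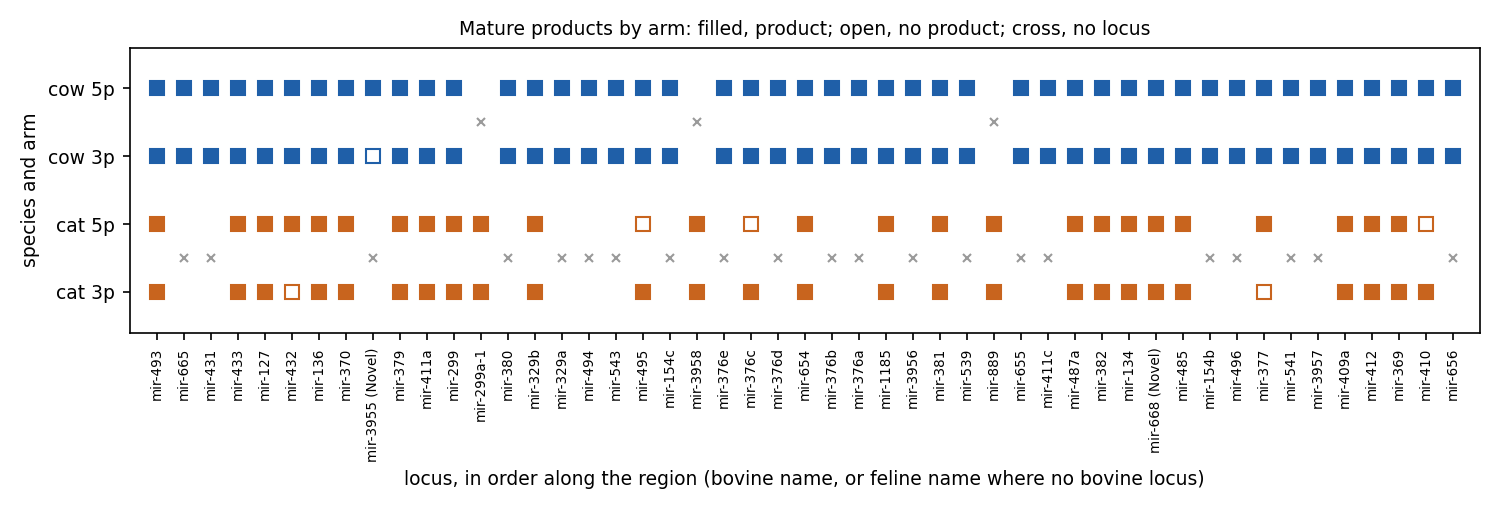
Mature products by arm (rows, cow 5p, cow 3p, cat 5p and cat 3p) for each locus in order along the region (horizontal axis). Filled squares are listed products, open squares are arms without one, and crosses are loci with no call in that species. The open squares are 1 bovine arm, mir-3955, and 5 feline arms.

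The RTL1-antisense loci showed both kinds of difference. The cow had all 5, with both arms each: mir-431, mir-433 (67428660 to 67428734), mir-127 (67429764 to 67429820), mir-432 (67431250 to 67431319) and mir-136. The cat had 4, since mir-431 was not called, and fca-mir-432 gave its 5p product alone. For fca-mir-433 (143312197 to 143312271) and the feline mir-136 locus the precursors were as long as in the cow, 75 and 94 nt. Precursors of mir-127 were also equal at 57 nt, with the feline one at 143313300 to 143313356. Its 5p and 3p products were 23 and 22 nt long in the cow and 22 and 20 nt in the cat, and their 5′ ends lay 34 and 32 nt apart.

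The register of the products was alike in both species at most matched hairpins. Register here is the distance between the 5′ ends of the 5p and the 3p product. It was the same in 15 of the 20 pairs with both arms in both species (75%, 95% exact interval 50.9 to 91.3%), against 114 of 146 pairs elsewhere in the genome (78.1%), and within 1 nt in 17. Thus the share in the region was near that of other loci. Exceptions were mir-134 (42 nt in the cow, 39 nt in the cat), mir-127, mir-412 (36 and 34 nt), mir-299 (32 and 31 nt) and mir-654 (35 and 36 nt). Over these 20 pairs the bovine distance had a median of 36 nt (range 32 to 52 nt), and mir-433 had the longest in both species (52 nt). Of 45 products listed in both species, 37 (82.2%) had the same length, against 236 of 317 elsewhere (74.4%), and no pair differed by more than 2 nt, against 5 nt elsewhere. All members together gave 91 products in the cow and 51 in the cat, with a median of 22 nt in each.

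Precursor spans differed more than the products did. Of the 25 matched pairs, 8 (32%) had precursors of the same length, near the 60 of 171 pairs elsewhere (35.1%). Bovine members were 57 to 113 nt long (median 67 nt), and feline members 50 to 100 nt (median 63.5 nt). At least 90 nt were reached by 15 of 46 bovine members (32.6%) and 2 of 28 feline members (7.14%), and by 14.3% of other bovine and 12.5% of other feline loci with a family number. In 6 of the 25 matched pairs the bovine precursor was more than 20 nt longer, and in 0 the feline one was. These were mir-370 (97 and 63 nt), mir-495 (99 and 64 nt), mir-668 (96 and 68 nt), mir-377 (100 and 62 nt), mir-409 (101 and 63 nt) and mir-369 (108 and 60 nt). The same count was not worked out for the 171 pairs elsewhere, so whether it is particular to the region is unknown. At mir-370, mir-668, mir-409 and mir-369, where both arms were listed in both species, the register was the same despite the longer span (35, 41, 32 and 35 nt). For mir-410 both spans were long, 104 and 100 nt. By the study's methods a span is set either around the duplex or around the products, and which was used at a locus was not analysed here.

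**Figure D5:**
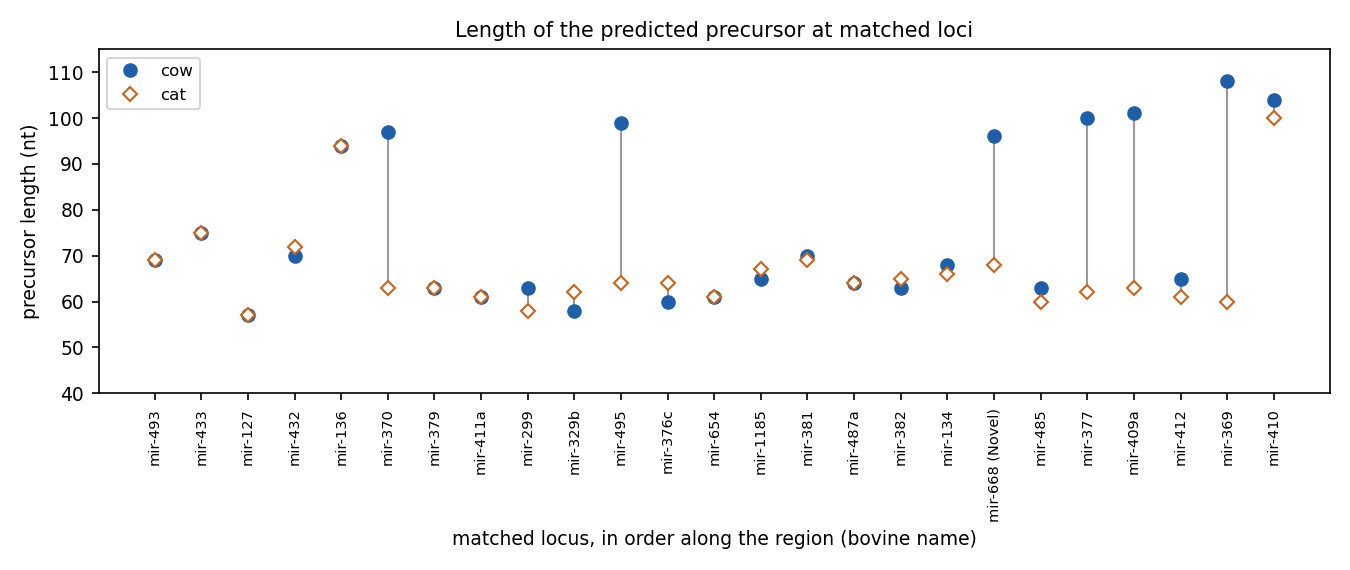
Length of the predicted precursor (vertical axis, nt, starting at 40) at the 25 matched loci in order along the region (horizontal axis), with cow as filled circles and cat as open diamonds joined by a line. Long lines mark the 6 loci whose bovine span was more than 20 nt longer, from mir-370 to mir-369, while most other pairs lie within a few nt.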

How the data were processed

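Per the submitters' processing notes and the study's methods, the authors used cutadapt to trim reads and Bowtie to align them, and ran miRWoods on the pooled libraries of each species. Reads with more than 10 genome positions were dropped, and those with fewer counted as fractions. The number of neighbouring small RNA loci is an input of the hairpin score. The deposited files give start, end, strand and name (other units are absent, counts and scores among them). The assembly used is not stated in the sources read here.

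Members, lists and tests were chosen with earlier results of these data known. Family numbers were read from names. Loci were matched by the longest common subsequence of family numbers on the same strand, with the same letter preferred. Shares were compared with Fisher's exact test (two-sided), adjusted over 4 tests by the Benjamini-Hochberg method, with a threshold of 0.05 and 95% Clopper-Pearson intervals that cover counting error only. Named in full are group ends, loci with 1 arm, loci without a match, minus-strand loci and the RTL1 list. Human sequences come from the genome letters in the study's product table. Python 3.11.15, scipy 1.17.1 and matplotlib 3.10.9 were used, after tests on simulated lists.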

Additional observations from a re-analysis of the deposited data

How the results depend on the processing

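Of 27 alternatives, 20 left direction and call, or counts within 1.5 times, as they were. Some of these could not have differed. Every bovine member was on the plus strand, and no family called in a single species had a locus elsewhere in the other list. The nearest other loci lay beyond the wider windows, and no feline locus of the region had an antisense name. The bovine excess of loci with both arms (18 percentage points) was 12.4 points with products of 20 to 24 nt alone and no longer passed (adjusted p = 0.247, Fisher's exact test). It was 18 to 27.1 points and passed under the other 4 alternatives. The feline difference in both arms (0.633 points) was 17.2 points against all other loci (adjusted p = 0.134, exact test, not passed) and -0.028 points with plus strand members alone. For bovine families with a feline locus the difference was -17.9 points below family number 1000 and -0.841 points by name with letter, and for feline families by name with letter it was -0.527 points. Names with letter gave 25 bovine and 7 feline names in a single species. Identical names alone matched 21 loci with a median gap difference of 64 nt. Wider windows (50 kb on each side) added no member. No replicate could be left out, since each species has 1 call set. No paired analysis was possible because the call sets analysed here, 1 for each species, hold no values per sample; read numbers in the study's supplement were not used. Absence of a call cannot be set against depth, which these files do not give.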
